A study of Mus musculus with 4 samples.

Results

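The 54 genes described here act in DNA replication and cell division, and were taken by symbol from the 34745 genes counted in cultured mouse macrophages. By their known role, 18 were set in an S-phase class and 31 in a mitotic class, which also holds genes that act on the way into mitosis. The remaining 5 were the transcription regulators E2f1, E2f8, Foxm1 and Mybl2, and Stmn1, which encodes stathmin, a protein that destabilises microtubules. The rule used roles and no measured level, although earlier results of these data were known when the genes were chosen. The comparison of interest was the level of these genes between genotypes, and of the S-phase class against the mitotic class.

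Total RNA of primary macrophages was sequenced in 4 libraries, 2 for each genotype, numbered 1 and 2. Per the study's text these were bone marrow-derived macrophages (BMDMs), which are grown from marrow progenitors in culture. The libraries labelled WT came from G3bp1f/f mice, which carry a floxed G3bp1 gene without Cre recombinase. Those labelled KO came from G3bp1mac-/- mice, which carry the same floxed gene and Cre under the Lyz2 promoter, a promoter active in monocytes, macrophages and granulocytes, so that cells of other lineages in the culture keep the gene. No treatment is named for these libraries, and the age of the mice is not given in the sources used here. G3BP1 is an RNA-binding protein that scaffolds stress granules, which are condensates of untranslated mRNA and protein. Nothing in the sources says that replicates came from separate mice or cultures, so p-values measure the spread between these libraries, which may be technical.

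A cell that divides first copies its DNA in S phase. The MCM helicase, loaded at origins by CDC6, opens the helix, the PCNA clamp holds the polymerases on the template, and ribonucleotide reductase supplies the nucleotides. Cyclins A and B with CDK1, the Polo and Aurora kinases, kinesin motors and the anaphase-promoting complex then drive the cell through mitosis. E2F factors drive many S-phase genes, while MYBL2 and FOXM1 drive many mitotic genes later in the cycle. In marrow cultures, progenitors and young macrophages divide, and division slows as the cells mature.

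Library totals ran from 16724241 to 19747909 counts, and levels are given as CPM, counts scaled to make libraries of unlike size comparable, with the trimmed mean of M values (TMM). For a gene with 0 counts the upper limit, from 3 counts and counting error alone, was 0.152 to 0.188 CPM. Of the 17991 genes with any count, 12418 passed the filter on low counts. All 54 cell cycle genes passed it, which needed at least 0.589 CPM, before TMM scaling, in 2 libraries. For 3 of them (Cdc6, Cenpf and Foxm1) only 1 WT library reached that level, so that they passed through KO, and all 3 had a log2 fold change of KO over WT past 1. With no filter, 48 of the 54 were above 0 and 24 (44.4%) over 1, against 14.9% of all genes with any count. Together they took between 0.0614% and 0.0985% of a library's counts. G3bp1, counted over the whole gene and not over the deleted part, had 104 and 180.4 CPM in WT and 70.1 and 117 CPM in KO. The genotypes overlapped, but within each replicate number the KO level was lower, with log2 ratios of -0.57 and -0.63. In every list of values, replicate 1 comes before replicate 2.

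Most of the 54 genes had a higher level in KO. The median fold change was larger in the mitotic than in the S-phase class, but not among genes at 10 CPM or more or on the scale of log2(FPKM + 1), as given with the class comparison. The fitted log2 fold change of KO over WT was above 0 for 48 of 54 genes, with a median of 0.93, against a median of 0.04 over all 12418 tested genes. It was over 1 for 24 of the 54, against 5.36% of all tested genes. The lower KO library exceeded the higher WT library for 38 of the 54 genes, against 20.0% of all tested genes. The reverse held for 3 (Pcna, Fen1 and E2f1), against 16.9%. In the plot of centred levels, the KO points of most mitotic genes form a group to the right of the WT points.

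**Figure D1:**
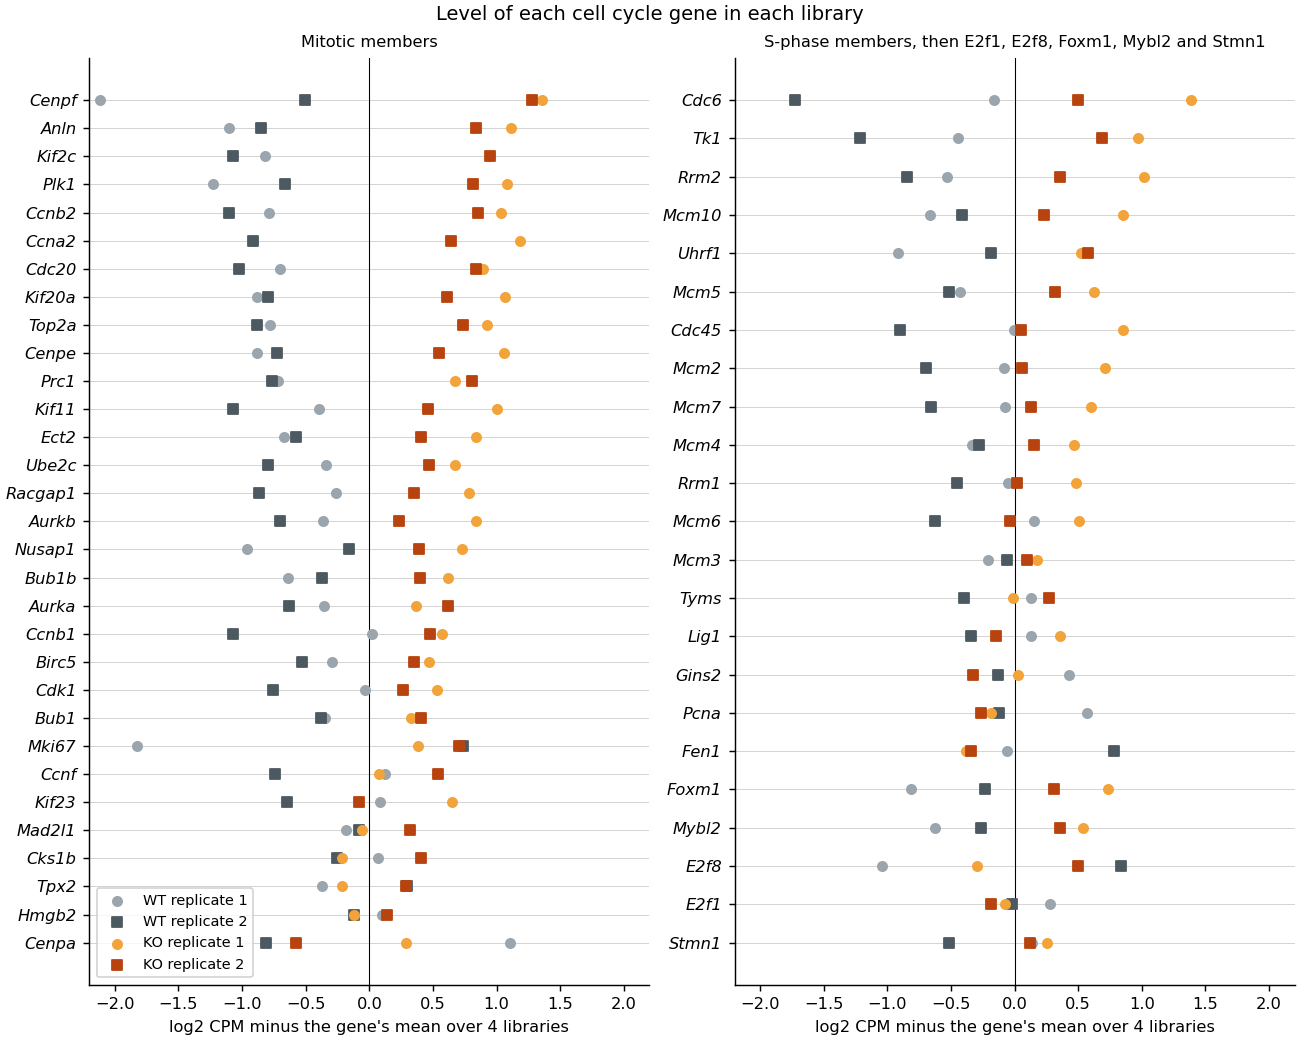
Level of each of the 54 genes in each library, as log2 CPM minus the gene's mean over the 4 libraries (x axis), with genes of a class ordered by fitted fold change (y axis). Grey points are the 2 WT libraries and orange points the 2 KO libraries. For 38 genes both orange points lie to the right of both grey points, and for Mki67 only WT replicate 1 stands apart.

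None of these differences passed the main test. With edgeR's quasi-likelihood test and Benjamini-Hochberg adjustment over all tested genes, 0 of the 54 genes and 0 of 12418 genes (0%) were called at an adjusted p under 0.05 with a fold change over 2, and adjusted p-values of the 54 ran from 0.216 to 0.996. At an unadjusted p under 0.05, 27 of the 54 were higher in KO and 0 lower, against 4.64% and 1.99% of all tested genes. Without KO replicate 1 the genes at this p were 12 and not 27. Other tests on the same counts called members: edgeR's exact test called 9 and DESeq2's Wald test 7, all mitotic and all higher in KO, against 1.55% and 1.10% of all tested genes. A fit with the replicate number as a block called 23 higher and 0 lower (3.98% and 1.37% of all tested genes), but no source says what the number stands for. In bulk RNA, more cells of a kind and more RNA per cell cannot be told apart, so a higher level may come from more cells in division or from more mRNA in each.

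**Figure D2:**
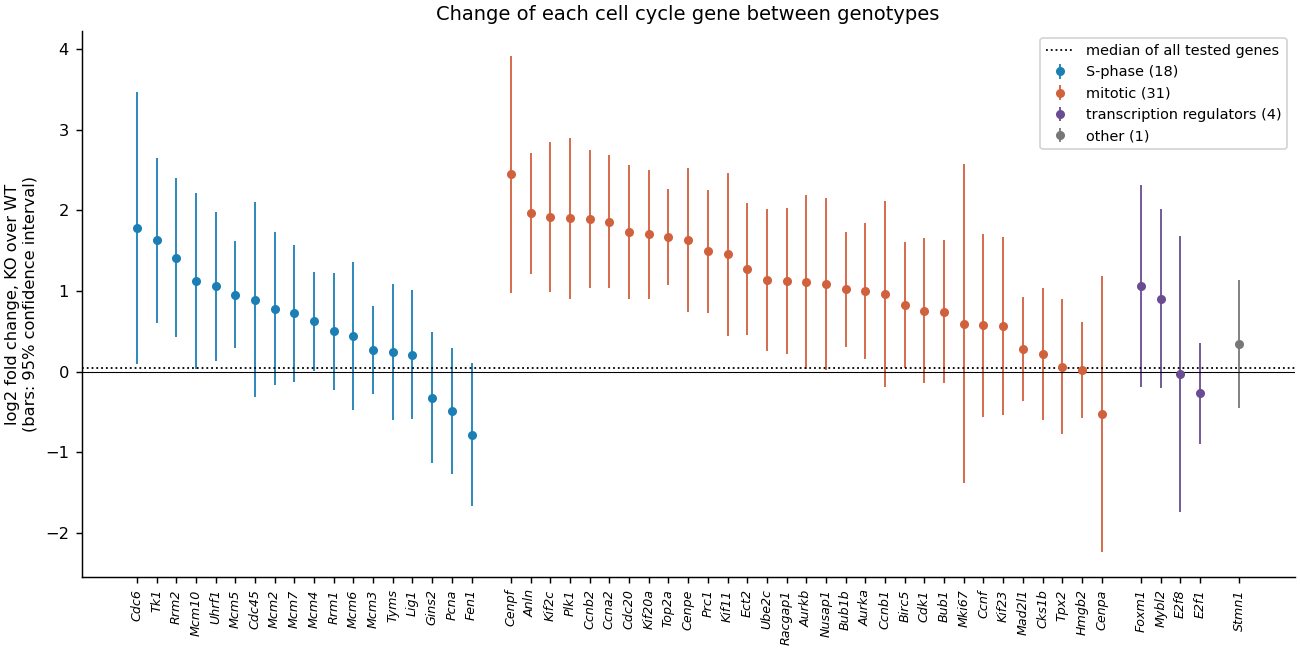
Fitted log2 fold change of KO over WT (y axis) for each of the 54 genes (x axis), by class, with 95% confidence intervals from the quasi-likelihood fit over 2 libraries per genotype. The intervals of 27 genes lie wholly above 0 and those of 0 genes wholly below it, and the dotted line marks the median of all tested genes at 0.04.

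In the S-phase class, the 6 subunits of the MCM helicase were higher in KO by small steps, with log2 fold changes from 0.27 to 0.95. Mcm5, the subunit with the highest fold change, had 8.20 and 7.72 CPM in WT and 17.0 and 13.8 CPM in KO (log2 fold change 0.95 ± 0.26, SE, n = 2 libraries per genotype). Mcm3, the subunit with the lowest, had 26.3 and 29.2 CPM in WT and 34.3 and 32.5 CPM in KO. Both genes kept their genotypes apart, Mcm3 by a narrow gap. Mcm2 had 9.25 and 6.02 CPM in WT and 16.0 and 10.2 CPM in KO. Mcm4 had 12.6 and 13.1 CPM in WT and 22.0 and 17.7 CPM in KO. Mcm7 had 10.7 and 7.15 CPM in WT and 17.2 and 12.3 CPM in KO, again with no overlap. Mcm6, at 35.6 and 20.7 CPM in WT and 45.5 and 31.1 CPM in KO, was the subunit whose genotypes overlapped.

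The genes that load and fire origins were not alike. Cdc6, the loader of the helicase, was low in WT, with 1.17 and 0.377 CPM, and had 3.49 and 1.88 CPM in KO (log2 fold change 1.78 ± 0.66, SE, the highest of the S-phase class). With 1 library left out it ran from 1.16 (without WT replicate 2) to 2.81 (without WT replicate 1). Mcm10 and Cdc45, which turn the loaded helicase into an active one, were also higher in both KO libraries, with log2 fold changes of 1.12 and 0.89. Gins2, a subunit of the GINS complex of that active helicase, was at 13.9 and 9.41 CPM in WT and 10.5 and 8.18 CPM in KO. Its genotypes overlapped and its log2 fold change was -0.32.

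The clamp gene Pcna and Fen1 of the lagging strand had negative log2 fold changes, unlike the helicase subunits, while that of Lig1 was positive. Pcna (ENSMUSG00000027342, chromosome 2, positions 132249162 to 132253314, minus strand, GRCm38) had 438 and 271 CPM in WT and 260.2 and 246 CPM in KO. WT replicate 1 was high and the other 3 libraries lay close together, and the log2 fold change was -0.49 ± 0.31 (SE). Pcna made up 51.6% and 41.6% of the counts of all 54 genes in WT and 29.4% and 31.0% in KO. Fen1, which trims Okazaki fragments, had 12.6 and 22.6 CPM in WT and 10.0 and 10.4 CPM in KO. Here WT replicate 2 was high, and the log2 fold change of -0.79 ± 0.35 (SE) was the lowest of the 54. Lig1, the ligase that seals those fragments, had 14.4 and 10.4 CPM in WT and 16.8 and 11.8 CPM in KO. Its genotypes overlapped, and its log2 fold change was 0.21.

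Nucleotide synthesis and DNA methylation genes followed. Tk1, the thymidine kinase of dividing cells, had 2.16 and 1.26 CPM in WT and 5.80 and 4.78 CPM in KO (log2 fold change 1.63 ± 0.40, SE). Rrm2, the subunit of ribonucleotide reductase that is made in S phase, had 2.34 and 1.88 CPM in WT and 6.92 and 4.37 CPM in KO (1.41 ± 0.39). For both genes the lower KO library lay well above the higher WT library. Rrm1, the other subunit, was more abundant and less different, with a log2 fold change of 0.50. Tyms, thymidylate synthase, had 6.35 and 4.39 CPM in WT and 5.74 and 7.01 CPM in KO, with overlapping genotypes. Uhrf1, which guides the copying of DNA methylation, had a log2 fold change of 1.06 with no overlap.

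In the mitotic class, 30 of 31 genes had a log2 fold change above 0 and 18 had one over 1. Top2a, the topoisomerase that untangles sister chromatids (ENSMUSG00000020914, chromosome 11, positions 98992943 to 99024189, minus strand, GRCm38), had 8.20 and 7.66 CPM in WT and 26.9 and 23.5 CPM in KO. Libraries of a genotype lay close together, and the log2 fold change was 1.67 ± 0.24 (SE), with the lowest adjusted p of the 54 (0.216, edgeR's quasi-likelihood test with Benjamini-Hochberg adjustment). Mki67, the gene of the Ki-67 proliferation antigen, showed no such pattern. It had 5.43 CPM in WT replicate 1, against 32.3 CPM in WT replicate 2 and 25.3 and 31.5 CPM in KO. Its log2 fold change of 0.59 rested on WT replicate 1 and was -0.18 without that library. Hmgb2, a chromatin protein high in dividing cells, had 20.8 and 17.9 CPM in WT and 17.9 and 21.4 CPM in KO, a log2 fold change of 0.02 that was -0.018 with DESeq2's size factors.

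The cyclins and their kinase were higher in KO to unlike degrees. Cyclin A and B genes came first, with Ccnb2 at 1.73 and 1.38 CPM in WT and 6.17 and 5.44 CPM in KO (log2 fold change 1.90 ± 0.34, SE). Ccna2 had 3.27 and 3.26 CPM in WT and 14.1 and 9.65 CPM in KO (1.86 ± 0.33). Ccnb1 had 3.39 and 1.57 CPM in WT and 4.99 and 4.67 CPM in KO, a smaller difference, with WT replicate 1 high. Cdk1, the catalytic partner of these cyclins, had 6.97 and 4.20 CPM in WT and 10.3 and 8.59 CPM in KO (log2 fold change 0.76). None of these 4 genes overlapped between genotypes. Ccnf and Cks1b, an F-box cyclin and a small CDK-binding protein, did overlap, with log2 fold changes of 0.58 and 0.22.

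The genes of the spindle, its checkpoint and its kinases were higher in both KO libraries, except for Tpx2. Plk1, Polo-like kinase, had the highest fold change of the 4 kinase and passenger complex genes, at 0.925 and 1.38 CPM in WT and 4.72 and 3.91 CPM in KO. Aurkb, Aurka and Birc5 (survivin, a subunit of the passenger complex) had log2 fold changes of 1.11, 0.99 and 0.83, and none of the 4 overlapped. Kif2c, a kinesin that dismantles microtubules at kinetochores, had 1.05 and 0.879 CPM in WT and 3.65 and 3.66 CPM in KO (log2 fold change 1.92 ± 0.37, SE). Kif11, the motor that pushes spindle poles apart, and Nusap1, a spindle protein, had log2 fold changes of 1.46 and 1.09. Tpx2, the spindle assembly factor that activates Aurora A, was the exception. It had 17.5 and 27.7 CPM in WT and 19.5 and 27.7 CPM in KO, so that it separated the replicate numbers and not the genotypes. Checkpoint genes Bub1b, Bub1 and Mad2l1 had log2 fold changes of 1.02, 0.74 and 0.28, the last with a narrow gap between genotypes.

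Kinetochore genes held both ends of the mitotic class. Cenpf (ENSMUSG00000026605, chromosome 1, positions 189640606 to 189688086, minus strand, GRCm38), a large kinetochore protein made in late S phase and mitosis, had 0.493 and 1.57 CPM in WT and 5.80 and 5.49 CPM in KO. Those WT levels were 8 and 25 counts, and the log2 fold change of 2.45 ± 0.58 (SE) was the highest of the 54. Leaving out WT replicate 1 gave 1.84, and leaving out WT replicate 2 gave 3.46. Cenpe, a kinetochore motor, had a log2 fold change of 1.63. Cenpa, the histone variant that marks centromeres, had 26.6 and 7.03 CPM in WT and 15.1 and 8.28 CPM in KO. Its WT libraries differed more than the genotypes did, and its log2 fold change of -0.53, the only negative one of the class, was 0.73 without WT replicate 1.

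All 8 genes of the anaphase-promoting complex and cytokinesis groups had a log2 fold change above 0, and 7 were over 1. Cdc20, which activates the complex, and Ube2c, the ubiquitin-conjugating enzyme that works with it, had log2 fold changes of 1.73 and 1.13 with no overlap. Anln, anillin of the contractile ring, had 2.90 and 3.45 CPM in WT and 13.5 and 11.2 CPM in KO (log2 fold change 1.96 ± 0.30, SE). Kif20a, Prc1, Ect2 and Racgap1, a kinesin, a bundler of midzone microtubules and regulators of the furrow, had log2 fold changes of 1.70, 1.49, 1.27 and 1.12 without overlap. Kif23, the partner of Racgap1 in the midzone, had a log2 fold change of 0.57 with overlapping genotypes.

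Among the transcription regulators, Foxm1 and Mybl2 had low levels that were higher in both KO libraries. Foxm1 had 0.493 and 0.753 CPM in WT and 1.50 and 1.12 CPM in KO (log2 fold change 1.06 ± 0.49, SE). Mybl2 had 0.678 and 0.879 CPM in WT and 1.56 and 1.37 CPM in KO (0.91 ± 0.44). E2f1, an activator of S-phase genes, was lower in KO within each replicate number, with 17.9 and 14.6 CPM in WT and 14.0 and 13 CPM in KO (-0.27 ± 0.25). E2f8, a repressor of the E2F family, had 2.10 and 7.78 CPM in WT and 3.54 and 6.15 CPM in KO, a split by replicate number whose log2 fold change of -0.03 was 0.11 when libraries were scaled by their totals alone. Stmn1 had 12.7 and 8.10 CPM in WT and 13.8 and 12.6 CPM in KO, with overlapping genotypes. The 95% intervals of all these 5 genes included 0.

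Set side by side, the median log2 fold change was 0.67 for the 18 S-phase genes and 1.11 for the 31 mitotic genes, a difference of -0.44. At an unadjusted p under 0.05, 7 of 18 S-phase and 20 of 31 mitotic genes were higher in KO, against 4.64% of all tested genes. The genotypes did not overlap, with KO higher, for 12 of 18 and 24 of 31, against 20.0%. Within replicate number 1 the median log2 ratio was 0.73 for S-phase and 1.26 for mitotic genes, and within number 2 it was 0.66 and 1.25, so that the S-phase median was lower by 0.53 and by 0.60. Taken in the same way between replicates 2 and 1 of a genotype, the S-phase minus mitotic difference was -0.28 in WT and -0.22 in KO, smaller than both but of the same sign. Leaving out Pcna gave an S-phase median of 0.72, and leaving out Mki67 and Top2a left the mitotic median at 1.11.

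The replicate numbers also differed within each genotype. The median S-phase level was lower in replicate 2 than in replicate 1 by 0.50 in WT and by 0.41 in KO, as log2, and the median mitotic level by 0.22 and by 0.19. The sources do not say what the numbers stand for. Of the 31 mitotic genes, 25 had a KO over WT ratio above 1 within both numbers and 0 had one below 1 within both, against 36.0% and 29.0% of all tested genes. Of the 18 S-phase genes, 14 were above within both and 3 (Pcna, Fen1 and Gins2) below within both. The plot of the ratios within each number shows Mki67 far to the right of the diagonal, with log2 ratios of 2.21 in number 1 and -0.03 in number 2.

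**Figure D3:**
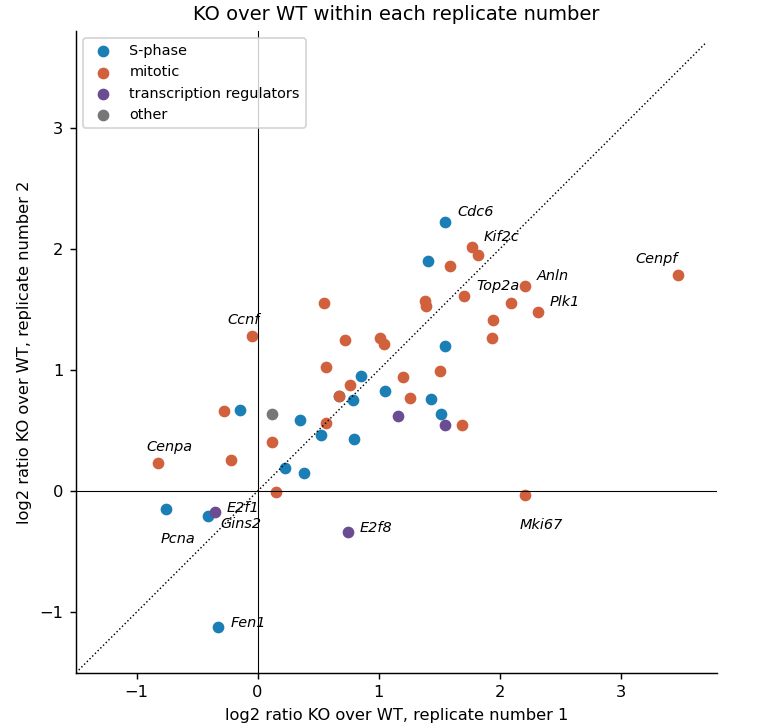
Log2 ratio of KO over WT for each of the 54 genes within replicate number 1 (x axis) and within replicate number 2 (y axis), coloured by class (the point labelled other is Stmn1). The dotted line marks equal ratios. Of 54 genes, 42 lie above 0 on both axes and 4 (Pcna, Fen1, Gins2 and E2f1) below 0 on both, against 36.0% and 29.0% of all tested genes.

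The class difference went along with the level of the genes. Across the 54 genes, Spearman's rho between the mean of log2 CPM (0.5 counts added) and log2 fold change was -0.63. It was -0.19 across all tested genes, as a description over genes that share the same 4 libraries. Among the 34 genes under 10 CPM on average the median was 1.12 and 23 were over 1. Among the 20 genes at 10 CPM or more it was 0.27, and Top2a alone was over 1. Over all tested genes the shares over 1 were 13.9% and 0.791% at these levels. Under 10 CPM the median was 1.20 for 24 mitotic genes and 1.12 for 7 S-phase genes. At 10 CPM or more it was 0.22 for 7 mitotic genes and 0.44 for 11 S-phase genes. At like level the classes therefore lay closer together, and above 10 CPM their order turned. On the scale of log2(FPKM + 1), where a change of a gene under 1 FPKM is compressed, the medians were 0.51 for S-phase and 0.49 for mitotic genes.

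Per length, in the authors' FPKM, Pcna stood first with 119 and 72.8 in WT and 82.6 and 69.7 in KO, and Rrm1 next with 10.4 and 7.80 in WT and 17.6 and 11.4 in KO. The median of the mitotic class was 0.66 and 0.60 FPKM in WT and 1.73 and 1.25 FPKM in KO, against 3.09 to 3.82 FPKM over all tested genes. The median gene of the class was thus below the median tested gene in all 4 libraries. The gene lengths behind these values were long, up to 17917 bases, and for 3 of the 54 genes longer than the locus itself, so levels between genes are rough.

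The wider pathway was described by 4 lists of further genes of the cycle. Of 80 tested genes in a list of other mitotic genes, 73 had a log2 fold change above 0, with a median of 0.68, and 25 (31.2%) were higher and 0 lower at an unadjusted p under 0.05, against 4.64% and 1.99% of all tested genes. Of the 80, 15 passed the filter through KO alone, Ska1, Depdc1a and Kif14 among them, and 0 through WT alone. With the filter on the mean CPM of all libraries, 65 of 72 were above 0, with a median of 0.58, and 21 (29.2%) were higher at that p, against 3.92% of all genes tested there. Ska1, a kinetochore-microtubule coupler, had the highest fitted fold change, with WT counts of 1 and 2 and KO counts of 16 and 15. Depdc1a had WT counts of 9 and 6 and KO counts of 40 and 52 (log2 fold change 2.34 ± 0.46, SE). Kif14, a kinesin of cytokinesis, had WT counts of 7 and 0 and KO counts of 18 and 18. At the low end were the histone variant gene H2afz, Cks2 and Cenpl, with log2 fold changes of -0.88, -0.55 and -0.47 and both KO libraries below both WT libraries.

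Other replication genes had a median of 0.12 over 59 tested, close to that of all tested genes, and 38 were above 0. A log2 fold change over 1 was found for 8 (13.6%), against 5.36% of all tested genes. At an unadjusted p under 0.05, 6 (10.2%) were higher and 0 lower, against 4.64% and 1.99% of all tested genes. However, 8 of the 59 passed the filter through KO alone, among them 7 of the 8 over 1. With the filter set on the mean CPM of all libraries, 4 of 54 (7.41%) were over 1 and 3 (5.56%) were higher at that p, against 3.98% and 3.92% of all genes tested there. With no filter, 8 of 59 (13.6%) were over 1, against 14.9% of all genes with any count. Orc1 of the origin recognition complex, Tcf19 and the Fanconi anaemia gene Fanci had log2 fold changes of 1.73, 1.69 and 1.58, each with at most 14 counts in a WT library. The origin licensing inhibitor gene Gmnn had WT counts of 633 and 146 and KO counts of 353 and 217, a spread within WT wider than that between genotypes, and Rfc3 and Prim1, for the clamp loader and primase, had log2 fold changes of -0.53 and -0.38. Genes of G1, the phase before replication, had a median of 0.09 over 22 tested, with 1 (4.55%) higher at an unadjusted p under 0.05, no more than the 4.64% of all tested genes. The highest was Ccnd1, cyclin D1, counted at 58 and 54 in WT, 121 and 118 in KO (log2 fold change 0.84). Tfdp2 and Ccne2 followed at 0.65 and 0.61, and Ccnd2, Lin37 and E2f5 were lowest at -0.66, -0.63 and -0.38.

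Brakes on the cycle, such as CDK inhibitors and checkpoint genes, had a median of 0.14 over 35 tested, with 1 higher and 1 lower at an unadjusted p under 0.05 (4.64% and 1.99% of all tested genes). Cdkn1c, the CDK inhibitor p57, was the most different downward, with WT counts of 4770 and 3214 and KO counts of 2725 and 2609 (log2 fold change -0.83 ± 0.28, SE), and both KO libraries were below both WT libraries. Cdkn1b and Ccng2 had log2 fold changes of -0.54 and -0.45 with overlap. Chek1, a kinase that is itself made in S phase, Atm and Fbxw7 were highest, at 0.98, 0.76 and 0.75.

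**Figure D4:**
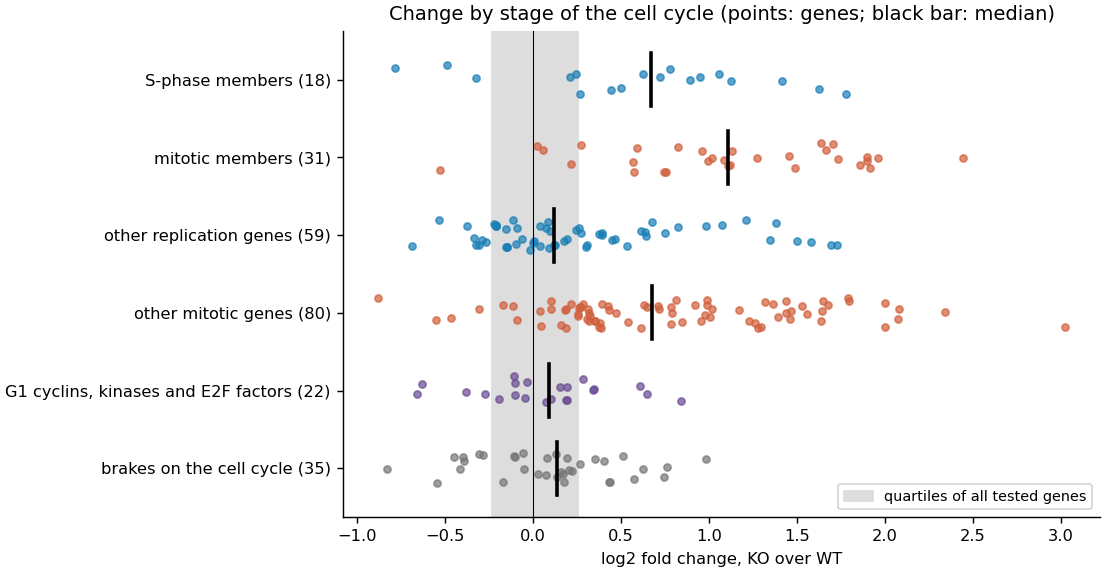
Log2 fold change of KO over WT (x axis) for the S-phase and mitotic classes and for 4 lists of further cell cycle genes (y axis), with the number of tested genes in brackets. Points are genes, black bars are medians, and the grey band spans the quartiles of all tested genes. The medians are 0.67 and 1.11 for the S-phase and mitotic classes and 0.12 and 0.68 for the other replication and other mitotic genes.

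The promoters of these genes carry motifs that were not used to choose them. The RefSeq promoter windows, 250 bases before to 50 after each annotated start (GRCm38.p6), held 46 of the 54 genes, 16 S-phase and 27 mitotic. The motifs searched on both strands were the cell cycle homology region TTTGAA, which the MuvB complex that works with MYBL2 and FOXM1 binds, the E2F site as TTTCCCGC, TTTGGCGC, TTTCGCGC or TTTGCCGC, and the CCAAT box. CCAAT and TTTGAA matches can share an end base, and a gene counted when any of its windows held the letters. TTTGAA was in 21 of 27 mitotic promoters (77.78%), in 3 of 16 S-phase promoters (18.75%) and in 20.23% of the 27025 genes with a window. The E2F letters were in 7 of 16 S-phase promoters (43.75%), in 1 of 27 mitotic promoters (3.7%, Cdk1) and in 2.6% of all genes. CCAAT was common, in 81.48% of mitotic, 68.75% of S-phase and 41.06% of all promoters. The related letters TTTAAA were in 29.63%, 25% and 14.88%.

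**Figure D5:**
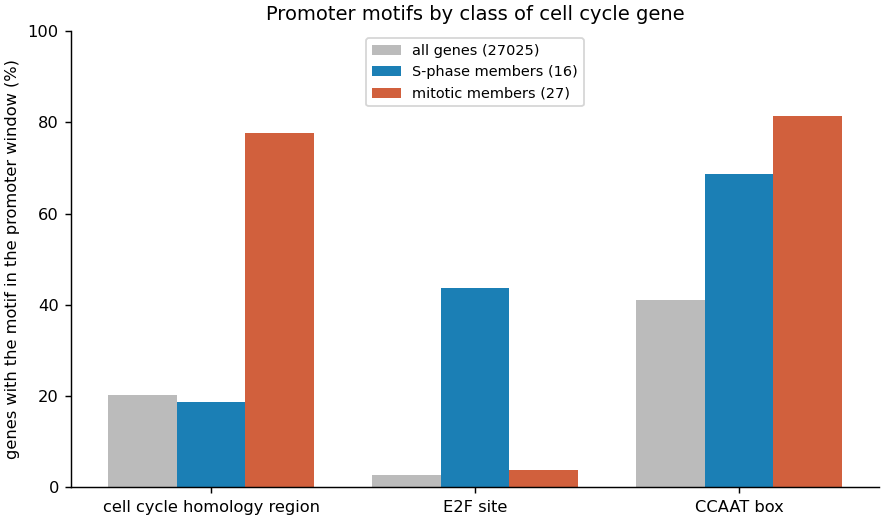
Share of genes whose promoter window holds each motif (y axis, percent), for all 27025 genes with a window, the 16 S-phase genes and the 27 mitotic genes. The cell cycle homology region TTTGAA stands out in the mitotic class (77.78%) and the E2F letters in the S-phase class (43.75%).

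To show how these promoters look, the 150 bases before the RefSeq start are printed for 4 genes of each class. They run in the direction of the gene, with every match to these motifs in capitals on whichever strand it lies. The RefSeq start can differ from that of the locus counted here. The Cdc6 stretch lies inside its counted locus, which begins at 98907801, and that of Pcna reaches into its locus. Pcna, Rrm1, Mki67 and Hmgb2 are the most abundant genes of their class with a window. Mcm5, Cdc6, Top2a and Ccnb2 were added after their values were seen, each for a motif match and a large fold change. The printed genes therefore cannot show whether matches and fold changes go together. Among the S-phase genes, Pcna and Rrm1 show CCAAT boxes alone, Mcm5 an E2F match at 149 bases before the start and CCAAT boxes, and Cdc6 an E2F match at 138 bases alone.
Pcna (chr2:132253181-132253330, minus strand): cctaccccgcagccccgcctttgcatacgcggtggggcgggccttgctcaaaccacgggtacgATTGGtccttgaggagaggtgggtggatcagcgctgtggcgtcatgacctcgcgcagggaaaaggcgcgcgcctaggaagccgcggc
Rrm1 (chr7:102441545-102441694, plus strand): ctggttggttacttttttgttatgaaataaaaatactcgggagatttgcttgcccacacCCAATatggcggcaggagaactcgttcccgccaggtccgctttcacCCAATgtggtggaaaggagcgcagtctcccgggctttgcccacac
Mcm5 (chr8:75109359-75109508, plus strand): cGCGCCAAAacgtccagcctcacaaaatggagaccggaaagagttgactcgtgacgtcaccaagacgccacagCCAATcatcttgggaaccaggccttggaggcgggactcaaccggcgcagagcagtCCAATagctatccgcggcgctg
Cdc6 (chr11:98908001-98908150, plus strand): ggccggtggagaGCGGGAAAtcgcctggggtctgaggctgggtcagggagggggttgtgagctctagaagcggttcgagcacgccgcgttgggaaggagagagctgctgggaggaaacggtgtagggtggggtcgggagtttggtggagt

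The mitotic promoters show TTTGAA in Mki67 (at 116 and 98 bases before the start), in Hmgb2 (at 30 bases) and, on the other strand, in Top2a (at 23 bases). That of Ccnb2 lies outside the printed stretch, which has CCAAT boxes at 87, 54 and 21 bases before the start.
Mki67 (chr7:135716380-135716529, minus strand): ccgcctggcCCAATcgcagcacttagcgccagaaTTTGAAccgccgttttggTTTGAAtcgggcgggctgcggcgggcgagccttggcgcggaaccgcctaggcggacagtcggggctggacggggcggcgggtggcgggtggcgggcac
Hmgb2 (chr8:57511693-57511842, plus strand): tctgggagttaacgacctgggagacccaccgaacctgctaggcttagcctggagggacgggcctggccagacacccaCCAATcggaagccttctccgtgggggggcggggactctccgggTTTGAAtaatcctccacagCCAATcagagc
Top2a (chr11:99024190-99024339, minus strand): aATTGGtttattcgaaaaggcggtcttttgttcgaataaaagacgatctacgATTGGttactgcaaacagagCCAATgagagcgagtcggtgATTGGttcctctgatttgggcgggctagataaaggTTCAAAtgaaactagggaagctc
Ccnb2 (chr9:70421555-70421704, minus strand): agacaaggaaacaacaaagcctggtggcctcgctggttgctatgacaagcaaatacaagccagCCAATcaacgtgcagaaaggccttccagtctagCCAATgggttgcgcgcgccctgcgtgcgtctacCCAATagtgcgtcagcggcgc

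The match to the motif was set beside the fold change as a description. The median log2 fold change was 1.13 in the 21 mitotic genes with TTTGAA and 0.89 in the 6 without it. It was 0.72 in the 7 S-phase genes with the E2F letters and 0.78 in the 9 without them. Mki67 and Hmgb2, which hold the same letters as Top2a, were among the mitotic genes whose genotypes overlapped. A match is no proof of binding, and no binding was measured in these libraries.

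Markers of the cells that a marrow culture can hold were read beside these results. The 14 macrophage markers were high in all libraries, with sums of 62579 and 55661 CPM in WT and 50746 and 53789 CPM in KO and a median log2 fold change of -0.18. The 12 stromal markers, such as collagens, Pdgfra and Sparc, all had a log2 fold change over 1, against 5.36% of all tested genes. Their sums were 109.7 and 122 CPM in WT and 491 and 458 CPM in KO, with a median of 2.12. At an unadjusted p under 0.05, 10 of 12 were higher in KO, against 4.64% of all tested genes. Of the 12, Pdgfrb, Lum and Fbln1 passed the filter through KO alone, and Pdgfrb overlapped between genotypes. With the filter on the mean CPM of all libraries, all 10 left were over 1 and 9 were higher at that p. The shares of all genes tested there were 3.98% and 3.92%. The part of the stromal signal in the cell cycle genes was not tested. Of the 9 markers of granulocyte-monocyte progenitors, which divide, Mpo, Elane and Ms4a3 had 0 counts in every library and Ctsg had 1 count in all. Flt3 had 6 to 9 counts per library, Prtn3 and Kit had log2 fold changes of -0.69 and -0.56 with overlap, and Cd34 and Sox4, not specific to these cells, had 1.52 and 2.12 without overlap. The sum of the list was 7.52 and 8.41 CPM in WT and 18.7 and 15.3 CPM in KO, most of it in KO from Cd34 and Sox4.

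As with the macrophage markers, the sums of 5 other lists were lower in both KO libraries than in both WT libraries. Mast cell and basophil markers had 73.5 and 65.0 CPM in WT and 29.1 and 34.1 CPM in KO, monocyte markers 209.9 and 221 against 138 and 162 CPM, B cell markers 22.1 and 23.2 against 12.0 and 11.4 CPM, erythroid markers 12.1 and 8.41 against 2.04 and 3.0 CPM, and T and NK cell markers 4.19 and 2.82 against 2.15 and 2.18 CPM. The remaining lists overlapped between genotypes. Neutrophil markers had 36.1 and 48.9 CPM in WT and 22.9 and 38.8 CPM in KO, dendritic cell markers 5.30 and 9.66 against 6.82 and 9.35 CPM, and endothelial markers 6.66 and 4.71 against 7.67 and 2.79 CPM. Single genes, named here after their values were seen, set some of these sums. Chil3 made up most of the monocyte sum in WT, at 144 and 134 CPM against 53.3 and 62.1 CPM in KO, while F13a1 was higher in both KO libraries (log2 fold change 0.37), and Hp and Vcan had 0.58 and 0.74 with overlap. In the neutrophil list Lcn2 split by replicate number, at 0.555 and 15.5 CPM in WT and 0.751 and 14.0 CPM in KO, while S100a9 (91 and 82 counts against 2 and 1) and S100a8 (log2 fold change -0.74) were lower and Mmp8 (0.15) was higher in both KO libraries.

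Some counts are uncertain. Of the 54 genes, 15 overlap another gene, 14 of them on the opposite strand, and the sources do not say whether counting used the strand. Fen1 overlaps Tmem258, whose counts (1704 and 1065 in WT, 740 and 1147 in KO) exceed those of Fen1. Pcna has a processed copy, Pcna-ps2, identical to it over 99.2% of 781 aligned bases, with WT counts of 3597 and 2230 and KO counts of 2482 and 2387, beside 7110 and 4324 and then 4849 and 4833 for Pcna. The copy kept the order of Pcna, with WT replicate 1 high. Ccnb1, Hmgb2, Stmn1, Mcm7, Uhrf1, Cdc20, Ube2c, Rrm2 and Plk1 also have annotated copies of at least 93% identity, to which reads could be lost or from which they could be gained.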

How the data were processed

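RNA sequencing covered 4 libraries of total RNA from mouse macrophages. The authors filtered reads with Seqtk, aligned them with HISAT2 2.0.4 and counted fragments per gene with StringTie 1.3.3b. They deposited raw counts, whole numbers that were not normalised, with an FPKM value beside each. The deposited FPKM values carry the library total and a gene length only: over 10564 well-counted genes, the length that both values imply was equal between libraries to within 0.00398%. The submitters' processing notes name the build mm39. Positions in the table were compared with GENCODE M21, and 27686 of 34267 shared identifiers matched GRCm38 at both ends, as did 45 of the 54 cell cycle genes, so positions are given on GRCm38. Whether counting used the strand is not given in the sources used here.

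Samples were grouped by the genotype in the labels. The counts went through edgeR 4.0.16 in R 4.3.3. The filter was filterByExpr (minimum count 10, minimum total count 15), the scaling was by the trimmed mean of M values, and the two-sided quasi-likelihood test (glmQLFit, glmQLFTest) had genotype as its only term, with p-values adjusted by Benjamini-Hochberg over all tested genes. Calls needed an adjusted p under 0.05 together with a log2 fold change past 1 in either direction, as in the study's methods. Standard errors and intervals came from this fit, and 0.5 counts were added before ratios within a replicate number were taken. The alternatives were DESeq2 1.42.0 size factors, library totals alone, a filter at a mean CPM of 1, no filter, the replicate number as a block, a loess correction for gene length (span 0.5) with and without the block, the DESeq2 Wald test, the edgeR exact test, no minimum fold change, each library left out in turn, and limma 3.58.1 on log2(FPKM + 1), where 2 or more libraries had to reach 0.1 FPKM. No library was a copy of another, as counts of each pair differed beyond sampling noise. The code was tested on simulated counts.

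The 54 genes, their classes and all lists were chosen with earlier results of these data known. All 54 could be named. Of each of 4 pathway lists the 3 genes with the highest and the 3 with the lowest log2 fold change were named, and cell type lists were given by their sums, with all 9 genes named for the progenitor list. Promoter windows came from RefSeq (GRCm38.p6), and copies were found by aligning transcripts with minimap2 2.31 (at least 300 bases and 93% identity).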

Additional observations from a re-analysis of the deposited data

How the results depend on the processing

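The direction of both class medians held in every setting, and 0 of the 54 genes were called in the main test, with DESeq2's size factors, library totals alone, either other filter, the length correction, no minimum fold change, limma on log2(FPKM + 1) or any library left out. The replicate number as a block moved the count of called genes from 0 to 664 (494 higher, 170 lower) and of called cell cycle genes from 0 to 23, of which 19 were mitotic and 4 (Cdc6, Rrm2, Tk1 and Uhrf1) S-phase. Mki67 was among the 23, with a log2 fold change of 1.01 in that fit, although its ratio within number 2 was -0.03. The block with the length correction gave 368 and 14, DESeq2's Wald test 181 and 7, and edgeR's exact test 229 and 9. Scaling by library totals alone called 1 gene and moved the median of all genes from 0.04 to 0.20 (log2), so that changes there are read against that shift. No source pairs the replicate numbers, and with 2 pairs the number is only shared: deviations from the group means correlated by 0.73 between libraries of the same number. The cause of the higher counts under the block was not tested.

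The S-phase minus mitotic difference was -0.44 and stayed between -0.39 and -0.67 with a library left out. It was 0.020 with limma on log2(FPKM + 1), where the mitotic median was 0.49. That scale compresses changes of low genes, but the filter and the scaling also differed there, and the part of each was not tested. With a library left out the mitotic median ran from 0.91 to 1.29, the S-phase median from 0.43 to 0.85, and the number of called genes from 0 to 1.

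Of 1100 values of single genes under these alternatives, 1016 kept their direction and side of the threshold, 59 passed the threshold (27 of them with the block alone) and 25 turned sign, mostly those near 0. Hmgb2 was -0.018 with DESeq2's size factors and -0.018 with its Wald test. E2f8 was 0.11 with library totals, 0.13 with the block, 0.086 with limma and 0.0025 with the block and length correction. Tpx2 was -0.075 under the length correction, or -0.074 when the block was added. With a library left out, values ran from -0.18 to 2.35 for Mki67, from -1.22 to 0.73 for Cenpa, from -0.23 to 0.40 for Tpx2, from -0.12 to 0.15 for Hmgb2, from -0.68 to 1.17 for E2f8, from -0.13 to 0.50 for Cks1b, from -0.028 to 0.54 for Tyms, from -0.060 to 0.47 for Lig1, from -1.42 to 0.71 for Gmnn, from -1.07 to 0.22 for Cdkn1b, from -2.26 to 2.03 for Ccnd2 and from -0.0087 to 1.09 for Tfdp2. The cause was not tested, beyond the fewer libraries. Most of the 54 genes had under 10 CPM, where counting error adds to the spread between 2 libraries.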
